A study of Mus musculus with 2 samples.

Results

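Epithelial sheets are held together by adherens junctions, tight junctions and desmosomes, and the 10 genes described here encode parts of each: Cdh1, Epcam, Cldn3, Cldn4, Cldn7, Ocln, F11r, Tjp1, Dsp and Crb3. They were chosen by name, and all 10 were among the 32285 genes listed in both count matrices. Uteri of female mice aged 6 months were profiled whole by droplet single-cell RNA sequencing of transcript 3′ ends. The control library came from Prickle1 f/f mice and the knockout library (cKO) from Prickle1 f/f Ltf-cre mice, so both carried floxed Prickle1 and only the second carried the Cre. Each library was made from a pool of 3 mice. A separate label calls both samples C57BL/6J wild-type, which does not match the titles used for grouping. Prickle1 is a core gene of planar cell polarity. The Cre is driven by the lactoferrin gene Ltf, which the uterine epithelium transcribes. With 1 library per group there were no replicates, no p-value is given, and genotype, animals, digestion and library preparation cannot be told apart.

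At adherens junctions, E-cadherin (Cdh1) binds E-cadherin on the neighbouring cell and is tied to actin inside. Tight junctions lie nearer the lumen, where strands of claudins, with occludin, seal the space between cells and set which ions pass, and ZO-1 (Tjp1) anchors these proteins to the cytoskeleton. In the uterus this barrier separates the luminal fluid from the stroma, and its claudins are known to change with hormones and around implantation.

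Sequence upstream of the start site was examined for 2 short motifs on both strands: CACCTG, an E2-box that Snail and Zeb repressors of epithelial genes can bind, and ACCGGT, the core of the Grainyhead-like motif. RefSeq promoters on GRCm38.p6 were listed for 9 of the 10 genes, and the 250 bases before each start were searched. CACCTG was present for 6 of the 9 (Epcam, Cldn4, Cldn7, Ocln, F11r and Crb3), against 19.43% of all 27025 genes in the table, and ACCGGT for 1 (Epcam), against 2.131%. Epcam is shown because it alone held both motifs, and the 3 claudins because their levels moved apart between the libraries. Letters are 5′ to 3′ on the gene's strand, and capitals mark matches on either strand. The windows are chr17:87635729-87635978 (+) for Epcam, chr5:134985964-134986213 (+) for Cldn3, chr5:134946935-134947184 (-) for Cldn4, and chr11:69964529-69964778 (+) and chr11:69965171-69965420 (+) for the 2 listed starts of Cldn7.
Epcam: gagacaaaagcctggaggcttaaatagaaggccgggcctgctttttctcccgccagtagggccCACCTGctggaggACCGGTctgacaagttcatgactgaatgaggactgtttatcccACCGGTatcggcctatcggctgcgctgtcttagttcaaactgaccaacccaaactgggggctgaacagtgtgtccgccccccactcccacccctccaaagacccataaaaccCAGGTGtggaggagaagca
Cldn3: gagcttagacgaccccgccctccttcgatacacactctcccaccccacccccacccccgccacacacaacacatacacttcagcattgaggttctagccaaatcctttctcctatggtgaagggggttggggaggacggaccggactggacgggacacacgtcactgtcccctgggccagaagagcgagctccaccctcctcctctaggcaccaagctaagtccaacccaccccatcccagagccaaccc
Cldn4: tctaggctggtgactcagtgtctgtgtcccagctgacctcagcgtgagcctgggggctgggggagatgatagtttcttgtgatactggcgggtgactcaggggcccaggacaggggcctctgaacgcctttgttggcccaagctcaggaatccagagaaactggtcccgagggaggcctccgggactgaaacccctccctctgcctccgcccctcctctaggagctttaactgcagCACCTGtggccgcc
Cldn7, first start: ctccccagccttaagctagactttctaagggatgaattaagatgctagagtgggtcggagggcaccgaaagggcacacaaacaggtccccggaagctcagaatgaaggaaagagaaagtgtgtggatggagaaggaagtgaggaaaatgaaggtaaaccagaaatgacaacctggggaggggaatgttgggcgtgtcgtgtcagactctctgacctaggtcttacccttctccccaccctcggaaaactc
Cldn7, second start: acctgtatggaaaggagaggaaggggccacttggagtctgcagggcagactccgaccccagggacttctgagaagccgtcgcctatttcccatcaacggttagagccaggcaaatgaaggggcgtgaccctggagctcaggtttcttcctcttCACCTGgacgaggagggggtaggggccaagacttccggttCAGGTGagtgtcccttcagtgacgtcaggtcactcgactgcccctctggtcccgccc
Epcam held 2 matches of each motif, Cldn4 held 1 CACCTG, the second Cldn7 start held 2, and the Cldn3 window and the first Cldn7 start held none. Cldn3 (chr5:134986214-134987472, + strand) and Cldn4 (chr5:134945119-134946934, - strand) lie head to head, 39279 bases apart with no annotated gene between them. A match is a description of these letters and not a binding site.

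The libraries held 45035801 unique molecular identifiers (UMIs, 1 per captured transcript) in control and 57145553 in cKO. Barcodes with at least 500 genes and at most 20% mitochondrial UMIs gave 3653 control cells (median 4650 UMIs) and 4950 cKO cells (median 5944), and 5 of these barcodes occurred in both libraries. Prickle1 itself gave 15 UMIs in 1058 control epithelial cells and 2 in 50 cKO epithelial cells, or 0.852 CPM (UMIs of the gene per 1000000 UMIs of the class; 95% interval 0.477 to 1.41) and 0.901 CPM (0.109 to 3.26). In all keratin-positive cells it gave 20 UMIs in control and 21 in cKO, or 1.08 CPM (0.659 to 1.67) and 4.70 CPM (2.91 to 7.19), and in stromal cells 3.92 CPM (2.67 to 5.57) and 8.90 CPM (7.75 to 10.2), so its level was not lower in the library labelled cKO in any of these sets. The epithelial counts are too few to check the deletion, and a 3′ tag outside the deleted part would not show it. Ltf stood at 1550.1 CPM in control and 159.9 CPM in cKO epithelial cells. Intervals throughout are 95%, exact (Poisson, binomial or Clopper-Pearson), and cover counting error only.

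Cells with at least 5 UMIs of Krt8 and Krt18 together and no Ptprc UMI were taken as keratin-positive. They numbered 1125 in control, 30.8% of cells (29.3 to 32.3), and 139 in cKO, 2.81% (2.37 to 3.31). Their median mitochondrial share was 4.25% in control and 1.81% in cKO (4.39% and 3.81% in the epithelial cells defined next), and the mitochondrial limit had removed 283 control and 46 cKO barcodes. The part of this difference in the results was not tested beyond a limit of 10%, under which the keratin-positive shares were 28.6% and 2.85%. The keratin-positive set was not the same mixture in both libraries. In cKO, 68 of the 139 cells (48.9%) carried at least 3 UMIs of 9 mesothelial markers such as Upk3b and Wt1, against 41 of 1125 (3.64%) in control. Cells under that limit with at least 3 of 12 further epithelial markers, called epithelial below, numbered 1058 in control (94.0% of the keratin-positive cells, 29.0% of all cells) and 50 in cKO (36.0% and 1.01%). The other 26 control and 21 cKO keratin-positive cells met neither limit. Both limits were set after the values were seen. Just inside the mesothelial limit, 9 control and 5 cKO cells had 3 or 4 such UMIs, and just outside it 32 and 15 had 1 or 2. Exactly 3 epithelial markers were found in 44 control cells and 1 cKO cell, and exactly 2 in 21 and 4.

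Depth also differed between the libraries. The median was 5442 UMIs in control and 16478 in cKO keratin-positive cells, and 5438 and 25291 in epithelial cells. For this reason the 10 genes in epithelial cells are given summed, thinned to 1000 UMIs per cell, and within windows of depth. The partner genes were compared on summed counts only.

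In all keratin-positive cells every one of the 10 genes stood lower in cKO on summed counts. Cldn4, a claudin that seals the paracellular path, was the furthest below control, at 426 CPM against 1547.7 CPM, a ratio of 0.275 (0.263 to 0.288). Cldn3, its neighbour on chromosome 5, went from 692.6 to 209.4 CPM, a ratio of 0.302 (0.283 to 0.323). Occludin (Ocln), a membrane protein of the same strands, went from 142.5 to 50.4 CPM, a ratio of 0.354 (0.307 to 0.406). These 3 were the only genes of the 10 past 2-fold lower, and 10.5% of all genes tested in this comparison were. The other 7 had ratios from 0.535 for Cdh1 to 0.685 for F11r. The median log2 ratio of the 10 was -0.83, beside 0.48 over all genes with at least 10 UMIs. With the trimmed mean of M values (TMM), a scaling that moves all log2 ratios here by -0.60, all 10 were at least 2-fold lower, beside 21.7% of all genes under the same scaling. The sizes changed with thinning and with the depth window, but both also change the weight of each kind of cell. At 10000 to 30000 UMIs, 15 of 45 keratin-positive cKO cells were epithelial, against 159 of 176 in control. The part of depth alone was not tested. Thinned to 1000 UMIs per cell, 7 of the 10 were at least 2-fold lower, beside 22.7% of all genes, the Cldn4 log2 ratio went from -1.86 to -3.00 and that of Tjp1 turned to 0.22. Among cells of 10000 to 30000 UMIs 8 were, beside 15% of all genes, and the Cldn4 log2 ratio was -4.74. Markers of other cells moved with this comparison: from control to cKO the 10 mesothelial markers summed to 69.02 and 931.8 CPM, the 6 stromal markers to 433.2 and 5014.5 CPM, the 5 smooth muscle markers to 38.93 and 391.3 CPM, and the 6 dissociation-stress genes to 4201.6 and 5934 CPM. With the mesothelial-marker cells left out the median was -0.39, Cldn4 alone was past 2-fold lower, beside 11.6% of genes, and the log2 ratios of Epcam (0.05) and Cldn7 (0.27) turned above 0. Without those cells the stromal markers summed to 60.61 CPM in control and 184.4 CPM in cKO, and the smooth muscle markers to 32.93 and 557.8 CPM. The mesothelial-marker cells themselves held 7968.3 and 10247.4 CPM of the stromal markers. The part of the other markers was not tested.

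Within epithelial cells the genes parted into those that stood lower in cKO and those that did not. Claudins 3 and 4, occludin, F11r and Tjp1 were lower, while Cdh1, Dsp and Crb3 were within counting error of control and Epcam and Cldn7 were slightly higher, an order that turned with the highest 1 or 2 cells of each library left out. None of the 10 passed 2-fold lower on summed counts (12% of all genes tested did), and none passed 2-fold higher (18.1% did). The median log2 ratio was -0.34, beside 0.29 over all genes. The TMM factor shifts every log2 ratio here by -0.42, so under it the 5 lower genes were past 2-fold lower, beside 20.3% of all genes, and Cdh1, Epcam, Cldn7 and Crb3 stood below 1.

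The adherens-junction gene Cdh1 gave 877.2 CPM (863.5 to 891.2) in control epithelial cells. In cKO it gave 882.5 CPM (843.8 to 922.4), a ratio of 1.006 (0.959 to 1.05). The intervals overlap, so no difference was detectable on the summed counts. The result for Cdh1 depended on depth: among cells of 10000 to 30000 UMIs it was 490.4 CPM in cKO against 952.1 CPM in control, a ratio of 0.515 (0.430 to 0.613), and among cells of at least 30000 UMIs the ratio was 0.999 (0.9502 to 1.05). Thinned to 1000 UMIs, 41.8% of control cells (38.8 to 44.9) and 56% of cKO cells (41.3 to 70.0) had a Cdh1 UMI. Epcam encodes a homotypic adhesion molecule that binds claudin-7. It stood at 848.2 CPM (834.6 to 861.9) against 915.8 CPM (876.4 to 956.5) in cKO, with a ratio of 1.08 (1.03 to 1.13), which was 0.995 with the highest cell of each library left out, and at 0.783 (0.663 to 0.919) in the 10000 to 30000 window and 1.009 (0.960 to 1.06) among cells of at least 30000 UMIs. Thinned, 41.8% of control cells (38.8 to 44.9) and 48% of cKO cells (33.7 to 62.6) had an Epcam UMI.

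Cldn4 was the most abundant of the 10 in control epithelial cells, at 1610.5 CPM (1591.8 to 1629.3), and stood at 831.1 CPM (793.6 to 869.9) in cKO. The ratio was 0.516 (0.492 to 0.541), a gap wider than counting error, which does not cover the spread between cells, animals or libraries. It was 0.101 (0.0732 to 0.135) among cells of 10000 to 30000 UMIs, from 45 UMIs in 15 cKO cells against 4826 in 159 control cells, and 0.595 (0.566 to 0.624) among cells of at least 30000 UMIs. After thinning, 72.2% of control cells (69.4 to 74.9) and 30% of cKO cells (17.9 to 44.6) had a Cldn4 UMI, beside 0.789% and 0.158% of stromal cells. Cldn4 was thus lower in cKO in both windows, by different amounts.

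Cldn3 showed the same direction, from 724.3 CPM (711.8 to 737) in control to 409.5 CPM (383.3 to 437) in cKO, a ratio of 0.565 (0.528 to 0.605). In the 10000 to 30000 window the ratio was 0.174 (0.116 to 0.251), and among cells of at least 30000 UMIs it was 0.570 (0.531 to 0.611). A Cldn3 UMI was present after thinning in 40.4% of control cells (37.4 to 43.4) and in 8% of cKO cells (2.22 to 19.2). Cldn7, the claudin that partners with EpCAM, went the other way on summed counts, from 1284.2 CPM (1267.5 to 1301.1) to 1609.6 CPM (1557.2 to 1663.2), a ratio of 1.25 (1.21 to 1.30). That direction rested on 2 cKO cells, which held 36.1% of the cKO Cldn7 UMIs: with the 2 highest cells left out in each library control stood at 1254.9 CPM of Cldn7 and cKO at 1230.4 CPM. The ratio was 0.785 (0.682 to 0.901) in the 10000 to 30000 window and 1.21 (1.16 to 1.25) among cells of at least 30000 UMIs, the opposite direction. A Cldn7 UMI was present after thinning in 56.2% of control cells (53.1 to 59.2) and 68% of cKO cells (53.3 to 80.5). The Cldn7 log2 ratio of 0.33 was close to the median over all genes, 0.29.

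Ocln went from 147.6 CPM (142 to 153.4) to 88.74 CPM (76.8 to 102), a ratio of 0.601 (0.517 to 0.695). F11r, the immunoglobulin-like adhesion molecule JAM-A, went from 230.7 CPM (223.6 to 237.9) to 151.8 CPM (136 to 168.9), a ratio of 0.658 (0.587 to 0.736). Both were lower in cKO in every window, at 0.356 (0.197 to 0.593) and 0.409 (0.276 to 0.585) among cells of 10000 to 30000 UMIs and 0.596 (0.509 to 0.694) and 0.674 (0.596 to 0.761) among cells of at least 30000 UMIs. After thinning, Ocln was found in 11.1% of control cells (9.30 to 13.2) and 4% of cKO cells (0.488 to 13.7), and F11r in 17.9% (15.6 to 20.4) and 12% (4.53 to 24.3), with overlapping intervals. The scaffold gene Tjp1 went from 155.8 CPM (150 to 161.7) to 95.95 CPM (83.5 to 109.7), a ratio of 0.616 (0.533 to 0.708). Its ratio was 0.5002 (0.293 to 0.801) in the 10000 to 30000 window and 0.583 (0.501 to 0.677) among cells of at least 30000 UMIs. Thinning gave another picture for Tjp1, with 10.7% of control cells (8.86 to 12.7) and 12% of cKO cells (4.53 to 24.3), but the latter rests on 6 cells and 7 UMIs.

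The desmosome gene Dsp, whose product desmoplakin ties cadherin plaques to keratin filaments, stood at 275.5 CPM (267.8 to 283.4) in control and 261.7 CPM (240.9 to 283.9) in cKO. Crb3, which encodes an apical polarity protein that helps place tight junctions, stood at 165.6 CPM (159.7 to 171.8) and 168.5 CPM (151.8 to 186.4). The ratios of 0.9499 (0.870 to 1.03) and 1.02 (0.911 to 1.13) were within counting error. In the 10000 to 30000 window they were 0.772 (0.570 to 1.03) and 0.482 (0.278 to 0.783), the second from 17 cKO UMIs, and among cells of at least 30000 UMIs 0.978 (0.890 to 1.07) and 0.973 (0.868 to 1.09). Thinned, Dsp was found in 22.3% of control cells (19.8 to 24.9) and 18% of cKO cells (8.58 to 31.4), and Crb3 in 9.71% (7.99 to 11.7) and 8% (2.22 to 19.2). Gene by gene, the thinned share was lower in cKO for 6 of the 10 and higher for 4 (Cdh1, Epcam, Cldn7 and Tjp1), with a median difference of -3 points.

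The depth window changed several of these ratios. Among cells of 10000 to 30000 UMIs, where the medians were 17511 UMIs in control and 16526 in cKO, all 10 genes stood below 1, and 5 (Cldn3, Cldn4, Ocln, F11r and Crb3) were at least 2-fold lower, beside 21.1% of all genes tested. The median log2 ratio there was -0.99, against 0.31 over all genes. Among cells of at least 30000 UMIs (193 control, 23 cKO) the median was -0.30 and none was 2-fold lower, beside 10.9% of all genes. A window of 3000 to 30000 UMIs (627 and 24 cells) gave a median of -0.94 and 5 genes 2-fold lower, beside 20.6%, with F11r (0.495) and Crb3 (0.487) only just past the limit, but its cKO cells were deeper (median 14094 against 5685 UMIs). Single cells weighed heavily in cKO: the highest cell of each gene held from 8.26% (Dsp) to 20.3% (Crb3) of its UMIs, with 19.7% for Cldn3, 19.3% for Cldn7, 17.6% for Cldn4 and 15.2% for Epcam, against at most 2.23% for any gene in control. With the 2 highest cells of each gene left out in both libraries, Cldn3 (0.486) and Cldn4 (0.431) passed 2-fold lower, and Epcam (0.925), Cldn7 (0.980) and Crb3 (0.851) stood below control. The share of all genes past 2-fold was not computed under this removal. In the epithelial sets the 10 mesothelial markers summed to 1.87 CPM in control and 3.15 CPM in cKO. These low sums follow from the limit that defines the sets, which uses 9 of those markers. The 6 stromal markers summed to 53.96 and 105 CPM, and the 6 dendritic markers to 148.2 and 123.9 CPM. The 5 smooth muscle markers summed to 32.6 and 558.1 CPM; Acta2 made up 544.2 CPM of the second, and Myh11 gave no UMI there. The 6 dissociation-stress genes summed to 4046.6 and 4006.1 CPM. The part of these markers in the results was not tested.

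**Figure D1:**
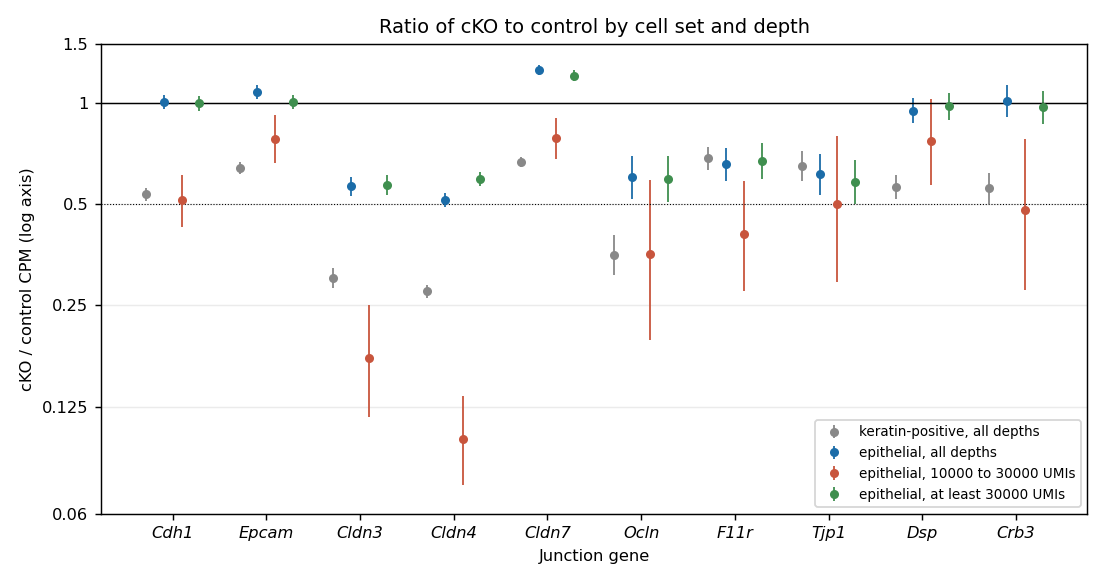
Ratio of cKO to control CPM (log axis) for each junction gene in keratin-positive cells, in epithelial cells, and in epithelial cells of 2 depth windows, with 95% counting intervals. Cldn3 and Cldn4 lie below 1 in all 4 sets and lowest in the 10000 to 30000 window, while Cdh1, Epcam, Dsp and Crb3 lie near 1 except among all keratin-positive cells and in that window.

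**Figure D2:**
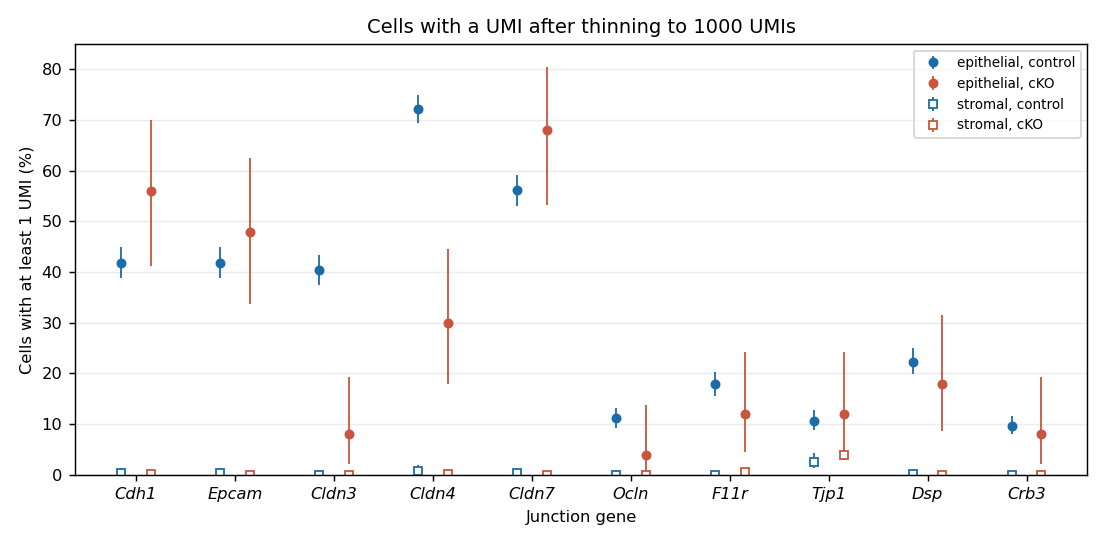
Share of cells with at least 1 UMI of each gene (%) after thinning every cell to 1000 UMIs, with exact 95% intervals, for epithelial cells (filled) and stromal cells (open). Cldn3 and Cldn4 intervals of the 2 libraries do not overlap, and stromal cells sit near 0 except for Tjp1.

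The claudins also differed in balance from cell to cell. Among epithelial cells with at least 20 UMIs of Cldn3, Cldn4 and Cldn7 together, Cldn4 made up a median of 48.1% of these UMIs in 474 control cells (lowest 0, highest 96.8%) and 25.8% in 28 cKO cells (lowest 0, highest 69.6%). The ranges overlap, and both libraries held cells with almost no Cldn4. Cells under 20% numbered 27 in control (5.70%, 3.79 to 8.18) and 13 in cKO (46.4%, 27.5 to 66.1). With depth limited to at least 10000 UMIs they were 24 of 328 (7.32%, 4.74 to 10.7) and again 13 of 28. Over all epithelial cells, Cldn4 made up 44.5% of the claudin UMIs in control and 29.2% in cKO, and Cldn7 35.5% and 56.5%. These limits were set after the values were seen, and because the claudins define the split it is a description.

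Because the split is made on the claudins, their levels on either side of it follow from the choice, and the other genes are given as values only, for cells of at least 10000 UMIs. Cdh1 stood at 624.5 CPM in the low-Cldn4 cells of control and 631.4 CPM in those of cKO, against 1010.4 and 1178.1 CPM in the other cells of each library. Epcam stood at 1198 and 1107.7 CPM, against 907.9 and 880.1 CPM. Ocln stood at 51.85 and 67.4 CPM, against 173.4 and 119.2 CPM. For these 3 genes the low-Cldn4 cells lay on the same side of the other cells in both libraries. The same held for Tjp1, Dsp and Crb3, all lower in the low-Cldn4 cells. Tjp1 stood at 92.53 and 79.76 CPM, against 176 and 115.5 CPM. Dsp stood at 241.7 and 193.2 CPM, against 282 and 340.9 CPM, and Crb3 at 129.2 and 159.5 CPM, against 188.7 and 209.5 CPM. F11r was also below the other cells in both, but its level differed between the libraries, at 161.1 CPM (139.7 to 184.9) in the low-Cldn4 cells of control and 101.1 CPM (81.3 to 124.3) in those of cKO, against 254.1 and 190.9 CPM. Of genes outside the 10, Elf3 stood at 704.3 CPM in the low-Cldn4 cells of control and 183.1 CPM in those of cKO, and Ltf at 2218.2 and 310.1 CPM. Both differed in the same direction in the other cells, with Elf3 at 688.7 and 320.4 CPM and Ltf at 1601.8 and 56.81 CPM. Krt18 stood at 764.1 and 1910.9 CPM in the low-Cldn4 cells, against 2091 and 2231.4 CPM in the others, and Krt8 at 2276.4 and 3556.7 CPM, against 5078.6 and 7409.5 CPM. Krt8 and Krt18 define the keratin-positive cells and Elf3 is a marker that defines the epithelial ones, so these levels partly follow from that choice.

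**Figure D3:**
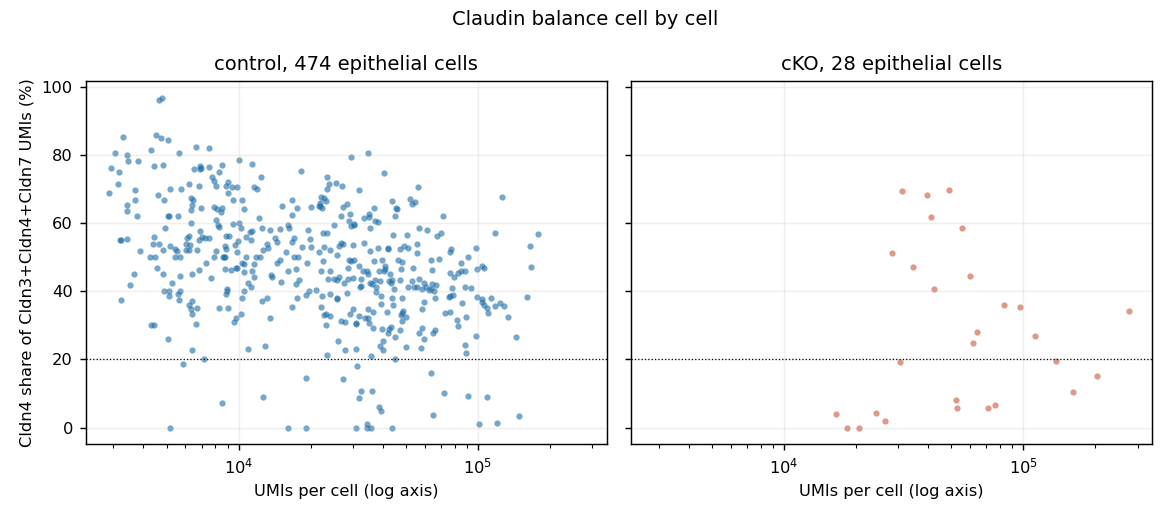
Cldn4 share of the Cldn3, Cldn4 and Cldn7 UMIs (%) against UMIs per cell (log axis), 1 point per epithelial cell with at least 20 claudin UMIs. The dotted line marks 20%: 27 of 474 control cells and 13 of 28 cKO cells lie below it.

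Counted cell by cell after thinning, the median number of the 10 genes with a UMI was 3 in control and 2.5 in cKO epithelial cells. At least 5 were present in 218 control cells (20.8%) and 5 cKO cells (10%). Unthinned, all 10 were present in 273 control cells (25.8%) and 22 cKO cells (44%), an order opposite to the thinned one, and the cKO cells were the deeper ones.

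Outside the epithelium the 10 genes fell into epithelium-restricted ones and ones shared with other cells. Stromal cells (Pdgfra-positive, 511 control and 1268 cKO) had under 4 CPM of every gene but Tjp1, which stood at 39.1 CPM (34.9 to 43.7) in control and 48.04 CPM (45.3 to 50.9) in cKO. All 10 genes were at least 2-fold higher in epithelial than in stromal cells of control, beside 24.2% of all genes. In cKO 9 of the 10 were, beside 18.2%, with Tjp1 just under the limit at a ratio of 1.997 (1.72 to 2.31). With all keratin-positive cells in place of the epithelial ones it was all 10 in control, beside 24.2%, and all 10 in cKO, beside 20.1%. Cell-free barcodes, which show the RNA free in the suspension, held every gene but Tjp1 well above the stromal level. The stromal level of those 9 genes was from 0.336% (Ocln) to 2.26% (F11r) of the cell-free level in control and from 0.380% (Cdh1) to 17.7% (F11r) in cKO. For Cldn4 the cell-free level was 552.4 CPM in control and 20.57 CPM in cKO, and the stromal level was 0.71% and 9.71% of it. For Tjp1 the stromal level was 64.6% of the cell-free level in control and 121% in cKO. In smooth muscle cells (Myh11-positive, 167 control and 381 cKO) Tjp1 stood at 89.89 and 80.02 CPM. In lymphocytes (139 control and 361 cKO) Cdh1 stood at 30.06 and 19.32 CPM, below its cell-free levels of 249.8 and 43.76 CPM.

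Mesothelial cells (Msln-positive, 31 control and 59 cKO), which line the outer surface of the uterus and carry keratins, had F11r, Tjp1 and Epcam but few claudins. In cKO, F11r stood at 181.5 CPM (162.4 to 202.2), Epcam at 132.4 CPM (116.2 to 150.2) and Tjp1 at 108.1 CPM (93.5 to 124.4). There, 4 UMIs of Cdh1 were found, 1 each of Cldn3, Cldn7 and Dsp, and 0 of Cldn4, which allows up to 3 counts, so that Cldn4 was at least 502-fold higher in cKO epithelial cells against that floor (408-fold at the lower end of the exact 95% interval). The F11r level was as high as in cKO epithelial cells (ratio epithelial to mesothelial 0.837, 0.717 to 0.977). In control the mesothelial set had 58.3 CPM of Cdh1 and 112 CPM of Cldn4, but 1 cell carrying all 10 genes supplied 97.4% and 95.9% of those UMIs. Without it Cdh1 was 1.65 CPM and Cldn4 4.94 CPM, while F11r (184.4 CPM), Epcam (118.6 CPM) and Tjp1 (98.8 CPM) remained near the cKO values. The cell-free levels of F11r, Epcam and Tjp1 were 95.03, 211 and 60.51 CPM in control and 21.88, 26.69 and 39.82 CPM in cKO, so of these mesothelial levels only that of Epcam in control lay below the cell-free one.

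In dendritic cells (Flt3-positive, 29 control and 124 cKO) F11r was above its stromal level, and the other genes gave low or no counts. F11r stood at 54.2 CPM (33.1 to 83.7) in control and 93.42 CPM (81.1 to 107) in cKO, with a UMI in 10 of 29 and 73 of 124 cells. In stromal cells, of like median depth, it stood at 2.15 CPM (1.25 to 3.44) and 3.87 CPM (3.12 to 4.74), with a UMI in 14 of 511 and 69 of 1268 cells, and in cell-free barcodes at 95.03 and 21.88 CPM, so the control dendritic level lay below the cell-free one and the cKO level above it. Cdh1 gave 1 UMI in control and 27 in 14 cKO cells (12.2 CPM, 8.03 to 17.7). Tjp1 stood at 5.42 and 14.89 CPM there. The claudins and Dsp were at 0 or 1 UMI in both libraries, and Epcam at 0 and 1. Ordered by level in control, the 10 genes in epithelial cells ran Cldn4, Cldn7, Cdh1, Epcam, Cldn3, Dsp, F11r, Crb3, Tjp1 and Ocln. The intervals of neighbours in that order did not overlap, apart from Crb3 with Tjp1 and Tjp1 with Ocln. These are 3′-tag counts, so levels are per transcript captured and not per length.

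**Figure D4:**
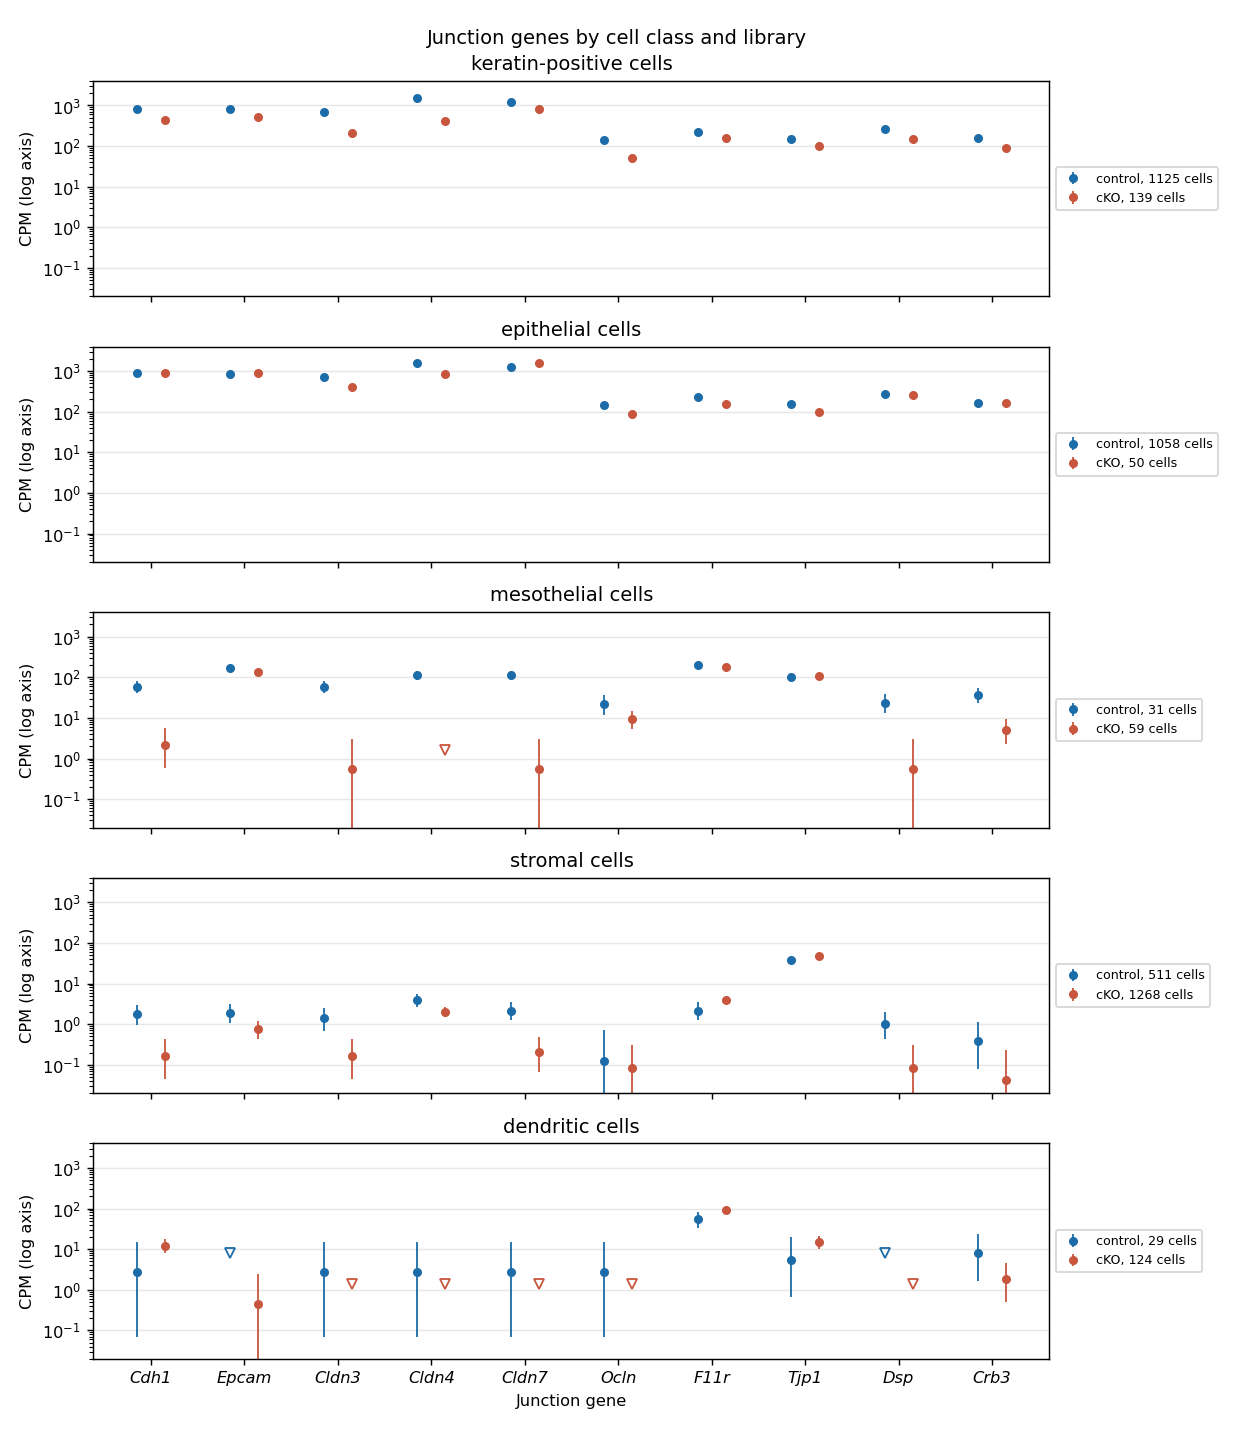
CPM (log axis) of each junction gene in 5 cell classes of both libraries, with 95% Poisson intervals; open triangles mark the level of 3 counts, the limit allowed where no UMI was found. Tjp1 and F11r keep levels above 30 CPM in mesothelial cells, and the claudins drop below 10 CPM in stromal and dendritic cells and in cKO mesothelial cells, while in the control mesothelial set 1 cell carries most of them.

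Of 70 further junction genes and regulators listed as partners, 69 were in the files. In keratin-positive cells 61 had at least 50 UMIs, of which 15 were at least 2-fold higher in cKO (26.6% of all genes were) and 11 at least 2-fold lower (10.5%). The 4 leading higher genes were Cldn15, a pore-forming claudin, at 3.13 and 50.85 CPM, the mesenchymal cadherin Cdh11 at 7.06 and 102.4 CPM, P-cadherin (Cdh3) at 2.86 and 40.54 CPM, and the transcription factor Twist1 at 7.60 and 91.84 CPM. In epithelial cells these 4 gave at most 2 UMIs each in cKO, so nearly all of their cKO UMIs lay in keratin-positive cells outside the epithelial subset. The 4 leading lower genes were lower in both sets. Elf3, an epithelial ETS factor, went from 684.2 to 263.1 CPM in epithelial cells, a ratio of 0.385 (0.353 to 0.418). Ovol1, an epithelial zinc-finger factor, had a ratio of 0.438 (0.349 to 0.543), the splicing regulator Esrp1 0.508 (0.425 to 0.603) and Cldn23 0.540 (0.468 to 0.621).

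In epithelial cells alone 50 partners had at least 50 UMIs, 6 at least 2-fold higher (18.1% of all genes) and 4 at least 2-fold lower (12%). By role, the 8 desmosome genes and 10 polarity genes held none past 2-fold in either direction, with median ratios of 1.09 and 0.965. The 13 tight-junction partners had a median ratio of 0.669, with 3 at least 2-fold higher. Jam2, chosen here after its values were seen, was 1 of these at 5.45 and 59.91 CPM, from a UMI in 70 control and 29 cKO cells. Gja1, the gap-junction gene connexin 43, also chosen after its values were seen, was lower, at 115.1 and 40.54 CPM. In all keratin-positive cells Gja1 lay in the opposite direction, at 136.3 and 486.1 CPM.

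The genes whose level followed the mean of the 10 most closely over 12 class-by-library sums were Dsg2, Urah, Myh14, Fxyd3, Tspan8 and Mal2, each with a Pearson r of 0.98 among 11990 genes ranked. The sums share libraries and depth, and the correlation mainly reads the step between keratin-positive cells and the rest. Of the 10 genes, Tjp1 (0.59) and F11r (0.71) followed that mean least when it was computed with epithelial cells, and Cldn3 (0.98) most.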

How the data were processed

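Single-cell RNA-seq of 2 libraries (control, cKO) was used. Raw UMI counts per gene and barcode were deposited by the authors as unfiltered matrices. The file headers name Cell Ranger 4, whereas the submitters' processing notes name Cell Ranger 6.1.1 and mm10, and the counting settings are not given in the sources used here. Groups came from sample titles. Members and gene lists were chosen with earlier results of these data known. The 10 junction genes are all named; partners were named by size of change in keratin-positive cells (at least 2-fold, at least 50 UMIs in the higher library, ranked by the interval limit nearer 1), and the 6 likest genes by Pearson r. Partner values in epithelial cells had been seen before this rule was applied to keratin-positive cells.

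Counts were summed per class and library and divided by the class total (CPM). Ratios carry exact conditional binomial intervals, CPM Poisson intervals and shares Clopper-Pearson intervals. Medians and log2 ratios use a pseudocount of 0.5 UMI. Cells were thinned to 1000 UMIs without replacement (8 control epithelial cells were shallower). Doublets were not removed; a simulated-doublet score above 0.25 marked 18 control (0.493%) and 63 cKO cells (1.27%), so the caller may not have worked in control. Stromal and dendritic cells needed at least 2 UMIs of Pdgfra or Flt3, mesothelial cells 2 of Msln. The mesothelial, epithelial and claudin limits, the 10000 to 30000 and 30000 UMI windows and the removal of the 2 highest cells were chosen after seeing the data. Ratio intervals were tested on simulated Poisson counts without spread between cells. That test cannot cover genes for which single cKO cells held a large part of the UMIs. Thinned shares were compared with their expected values in the control epithelial cells themselves. Gene positions came from GENCODE M21 on GRCm38, which held 99.61% of the identifiers; Cldn3, Dsp, Crb3 and Tjp1 overlap other annotated genes. Python 3.11.15, numpy 2.4.6, scipy 1.17.1, pandas 2.3.3 and scikit-learn were used.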

Additional observations from a re-analysis of the deposited data

How the results depend on the processing

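No paired analysis was possible because each group was 1 library. In epithelial cells, Cldn3, Cldn4, Ocln and F11r were below control under all 24 alternatives, Tjp1 under 23, Dsp under 22, Cdh1 under 14 and Crb3 under 12, while Epcam and Cldn7 were above it under 19 and 20. The alternatives are not independent. The limit of at most 1 Msln UMI kept the same 1058 and 50 cells, so its outcome was fixed. The minimum of 300 genes and the doublet limit kept the same 50 cKO cells. The median log2 ratio of the 10 genes in epithelial cells (-0.34) became -0.099 thinned to 1000 UMIs, -0.94 at 3000 to 30000 UMIs, -0.99 at 10000 to 30000 UMIs and -0.75 with TMM. The count at least 2-fold lower (0, beside 12% of all genes) became 5 in both windows (beside 20.6% at 3000 to 30000 UMIs and 21.1% at 10000 to 30000). At 3000 to 30000 UMIs, F11r and Crb3 counted only without the pseudocount. It was 5 with TMM (20.3%). It became 3 thinned, 2 with per-cell means and 2 without the 2 highest cells of each gene. It was 1 with 10% mitochondrial UMIs, with the highest cell of each gene left out, or with mesothelial limits of 1 or 10 UMIs. For the settings that gave 3, 2 or 1 the share of all genes was not computed, so those counts have no background. In keratin-positive cells the median (-0.83) became -1.13 thinned, -1.31 with per-cell means, -2.13 and -2.06 in the windows, -0.47 with keratins counted after thinning, -0.48 with at most 1 Msln UMI, -0.39 without mesothelial markers, -0.97 without the highest cell, -1.03 without the 2 highest cells and -1.43 with TMM. The count there (3, beside 10.5% of all genes) became 7 thinned (22.7%) and 8 at 10000 to 30000 UMIs (15%). It was 10 with TMM (21.7%) and 1 without mesothelial markers (11.6%). It became 6 without the 2 highest cells, 7 with per-cell means and 8 at 3000 to 30000 UMIs. For these last 3 settings the share of all genes was not computed, so their counts have no background. The median thinned share of keratin-positive cells with a UMI differed by -18.9 points (-11.0 at 500 UMIs, -29.1 at 2000, -35.9 unthinned). In epithelial cells the medians, which fall on different genes, differed by -16.3 points (the median of the gene-by-gene differences was -3), by -5.10 at 500 UMIs, and turned to 4.95 unthinned, where cKO cells are deeper. The log2 ratio of the keratin-positive share (-3.46) was -4.31 with keratins counted after thinning, -4.07 with at most 1 Msln UMI and -4.84 for epithelial cells. Beyond the construction of each alternative, the cause was not tested. Subtraction of cell-free RNA scaled on leukocyte genes was not run; the version at 5% of UMIs was. With 50 cKO epithelial cells, genes under about 100 CPM rest on few UMIs at matched depth.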
